A study of Mus musculus with 2 samples.

Results

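The genes described here encode the subunits of GABA-A, glycine and glutamate receptors, which receive the main inhibitory and excitatory signals of the brain. They were chosen by name, as the protein-coding genes whose symbol marks a GABA-A (Gabr, without the GABA-B genes), AMPA (Gria), kainate (Grik), NMDA (Grin), metabotropic glutamate (Grm) or glycine receptor (Glra, Glrb) subunit. All 48 such genes of the annotation were in the tables, among 21474 protein-coding genes. The samples form 1 group, B6NCrl mouse embryos of day 12.5 whose forebrains were pooled over both sexes, with no treatment named. Replicate 1 pooled 120 embryos and replicate 2 pooled 68, and the labels call them biological replicates. Total RNA was sequenced from 10 ng per library. With 1 group of 2 pools no permutation test exists, so a difference is given here against the spread between the pools. Where a gene has a pair of values, replicate 1 comes first.

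GABA-A and glycine receptors are chloride channels built from several subunits around a pore, and in immature neurons, which hold much chloride, their opening can depolarise the cell. AMPA, kainate and NMDA receptors are cation channels opened by glutamate, and metabotropic glutamate receptors act through G proteins. Many of these families exchange subunits as the brain matures, such as GluN2B for GluN2A or alpha2 for alpha1 in glycine receptors, and such exchanges alter channel kinetics and drug responses.

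Depth was close to equal, with 33711030 expected counts in replicate 1 and 34578499 in replicate 2, of which 15804 and 16518 fell on the 48 genes. Forebrain identity genes were present at a TPM (transcripts scaled to a fixed total, per length) of 1 or more in both pools for 6 of 6, led by Lhx2, Pax6 and Dlx2, while 0 of 7 hindbrain and spinal cord genes were. The highest of the latter, Hoxa3, stood at 0.02 and 0.26 TPM, and the summed level of the 7 was 0.1 and 0.33 TPM. All 8 pan-neuronal genes, led by Tubb3, Map2 and Stmn2, and all 7 radial glia genes, led by Vim, Fabp7 and Hes5, passed 1 TPM. Meningeal genes, led by Col3a1, Col1a1 and Col1a2, summed to 687 and 837 TPM, and blood genes, led by Hbb-y, Hba-x and Alas2, to 5994 and 8111 TPM. The tissue is a mixture, and fewer cells of a type and less RNA per cell cannot be told apart.

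Of the 48 subunit genes, 30 reached 1 TPM in both pools, which is 62.5%, beside 60.0% of all protein-coding genes. The share detected was thus near the background, but the levels were low. The median over the 48 was 1.97 TPM, against 4.60 TPM over all protein-coding genes. Among the detected genes the medians were 3.40 TPM and 21.6 TPM. Only 6 subunits averaged over 10 TPM, among them Gria2, Grik2, Gabra2 and Glrb. The 5 highest held 49.5% of the summed level of all 48, which was 205 and 216 TPM in the pools. At the other end, 6 subunits had 3 counts or fewer in both pools. A count of 3 was worth a median of 0.0445 and 0.0436 TPM over the members in the pools, so subunits near that level cannot be ordered at this depth.

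**Figure D1:**
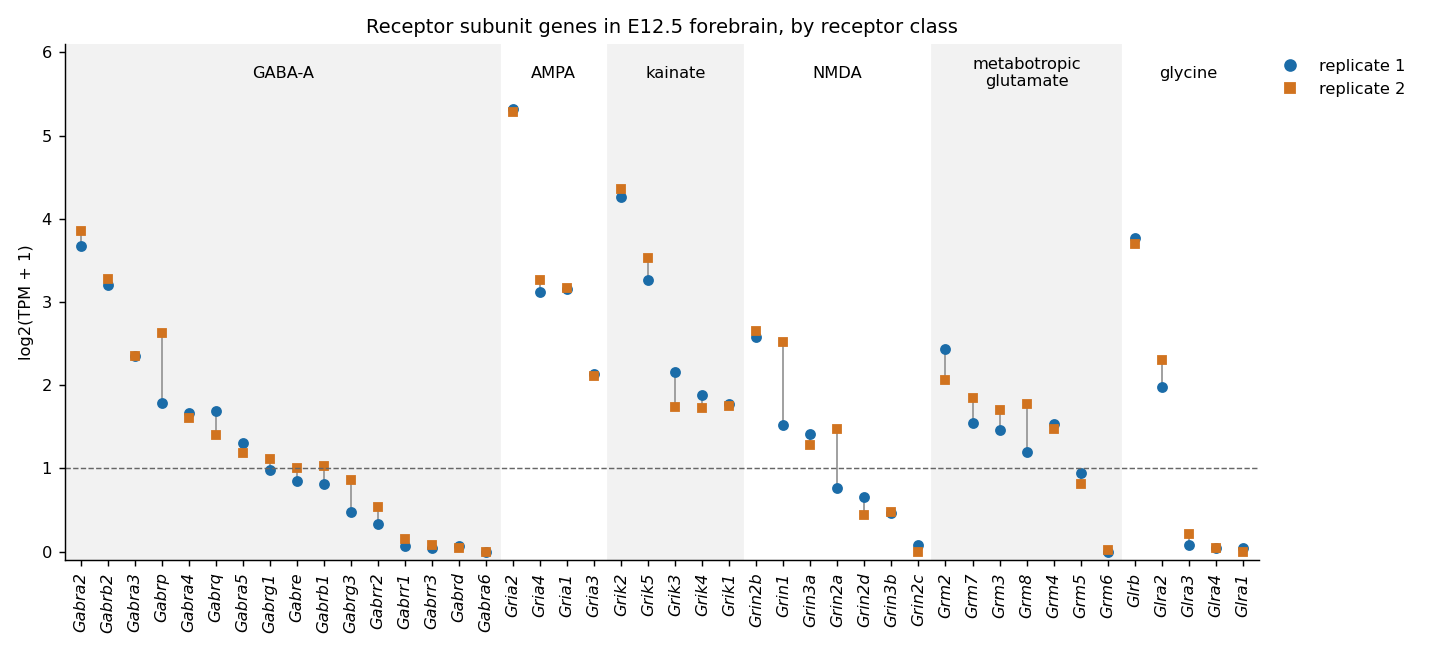
Level of 44 of the 48 subunit genes as log2(TPM + 1), grouped by receptor class, with a circle for replicate 1 and a square for replicate 2 and the dashed line at 1 TPM. Gria2 is the highest in both pools at 39.0 and 38.0 TPM, and Gabra6 is at 0 in both.

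Summed per class, the 19 GABA-A genes stood at 73.8 ± 2.92 TPM (SD, n = 2) and the 4 AMPA genes at 58.0 ± 0.0849 TPM. The 5 kainate genes summed to 36.2 ± 1.12 TPM, the 5 glycine receptor genes to 15.9 ± 0.311 TPM, the 8 metabotropic glutamate genes to 14.6 ± 0.559 TPM and the 7 NMDA genes to 12.1 ± 2.64 TPM. Each class exceeded the next by more than the difference between pools, except metabotropic glutamate over NMDA, which did not. GABA-A exceeded AMPA by 0.31 log2 in replicate 1 and by 0.39 log2 in replicate 2. When only transcripts annotated as coding were counted this difference was 0.68, or 0.99 with genes of a single listed transcript such as Gabra2 kept, the latter chosen after seeing the data. All AMPA and all kainate genes were detected, against 10 of 19 GABA-A, 6 of 8 metabotropic glutamate, 3 of 7 NMDA and 2 of 5 glycine receptor genes.

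Gria2, which encodes GluA2, the subunit whose edited form keeps AMPA receptors nearly impermeable to calcium, was the highest of all 48 genes. Its level was 39.0 TPM in replicate 1 and 38.0 in replicate 2. Gria4 followed at 7.71 and 8.57 TPM, Gria1 at 7.92 and 7.95 TPM and Gria3 at 3.38 and 3.33 TPM. Over all transcripts, Gria2 was 2.05 and 1.92 times the sum of the other AMPA genes, a difference beyond the spread between pools. Gria4 and Gria1 did not differ beyond it, and Gria3 was below both. On transcripts annotated as coding alone, Gria2 stood at 16.1 and 13.4 TPM, below the sum of the other AMPA genes in both pools.

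The AMPA genes each carry a pair of mutually exclusive exons, flip and flop, which set how fast the channel desensitises, and flip forms are known to predominate early in development. The Gria2 pair is shown because its coding transcripts divide by it, and the Gria4 pair because its forms were not separated beyond the spread between pools. Capitals mark the bases at which flip and flop of the same gene differ, and all are read 5′ to 3′ on the coding strand from the GENCODE M21 transcripts on GRCm38.
Gria2 flip: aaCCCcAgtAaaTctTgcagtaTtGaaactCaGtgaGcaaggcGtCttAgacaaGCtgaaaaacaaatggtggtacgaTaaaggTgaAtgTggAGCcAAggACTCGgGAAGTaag
Gria2 flop: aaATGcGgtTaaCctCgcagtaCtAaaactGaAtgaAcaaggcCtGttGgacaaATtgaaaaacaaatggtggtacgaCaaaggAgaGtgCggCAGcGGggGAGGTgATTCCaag
Gria4 flip: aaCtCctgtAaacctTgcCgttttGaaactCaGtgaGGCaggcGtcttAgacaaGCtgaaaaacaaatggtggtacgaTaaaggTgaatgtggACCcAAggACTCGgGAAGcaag
Gria4 flop: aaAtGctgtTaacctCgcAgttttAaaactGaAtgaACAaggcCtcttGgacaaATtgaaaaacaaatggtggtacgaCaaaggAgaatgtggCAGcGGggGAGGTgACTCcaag
Each exon is 115 bases long, and flip and flop differ at 36 bases in Gria2 and at 31 in Gria4. The Gria2 flip exon lies at chr3:80690404-80690518 and the flop exon at chr3:80691320-80691434, both on the minus strand and both coding. The Gria4 flip exon lies at chr9:4427030-4427144 and the flop exon at chr9:4432773-4432887, also on the minus strand and coding. The Gria4 flip transcript has 5441 bases in the tables and 5352 in M21, so its exons in M4 may differ from those shown.

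In Gria2, the coding flip transcript stood at 13.1 and 10.1 TPM and the coding flop transcript at 2.96 and 3.35 TPM. Flip was higher in both pools beyond their spread, and the deposited intervals of both forms were apart. Its share of the pair was 78.3 ± 4.61% (SD, n = 2). The other AMPA genes were below 10 TPM, and their forms were examined after their values were seen. In Gria1 the flip transcripts summed to 6.22 and 7.05 TPM and the flop transcript stood at 0.54 and 0.91 TPM, a flip share of 90.3 ± 2.44%. In Gria3 flip stood at 2.22 and 1.85 TPM and flop at 0.15 and 0.19 TPM, a flip share of 92.2 ± 2.11%, but the deposited intervals overlapped. In Gria4 flip stood at 1.82 and 1.37 TPM and flop at 1.09 and 1.37 TPM, a flip share of 56.3 ± 8.87%, and neither was higher beyond the spread between pools. The flip and flop transcripts also differ elsewhere, as in Gria2, where the flip transcript is 4026 bases long and the flop transcript 10371. The shares therefore rest on the whole transcript, not on the exon alone.

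**Figure D2:**
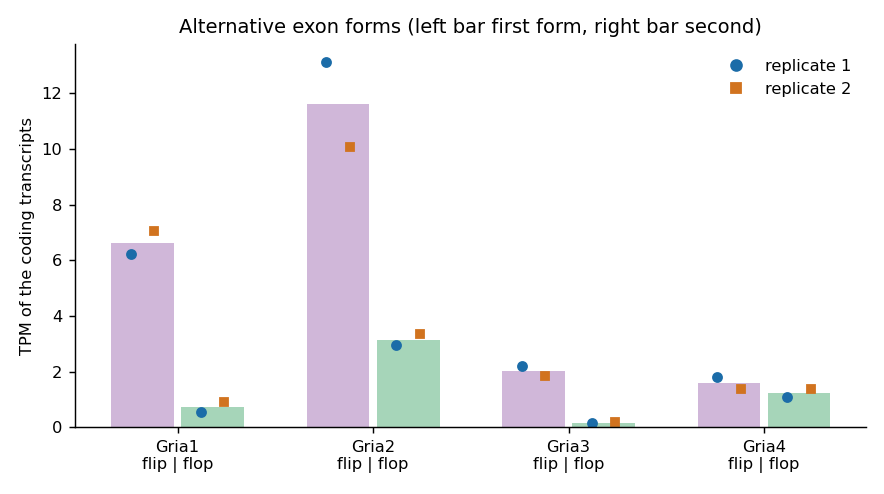
TPM of the coding transcripts that carry each alternative form, with flip (left) and flop (right) for each of the 4 AMPA genes; bars are means of 2 pools, circles replicate 1 and squares replicate 2. Flip exceeds flop in Gria1, Gria2 and Gria3 in both pools, and the forms of Gria4 meet at 1.37 TPM in replicate 2.

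Of the kainate receptor genes, Grik2, which encodes the pore-forming GluK2, stood at 18.2 and 19.5 TPM. Grik5, whose product GluK5 binds glutamate with high affinity and needs a partner such as GluK2, stood at 8.63 and 10.5 TPM. Grik3 followed at 3.47 and 2.33 TPM, and Grik4 and Grik1 ranged from 2.30 to 2.67 TPM over both pools. The order Grik2, Grik5, Grik3 held beyond the spread between pools, and the 3 lowest did not separate. The genes for GluK1 to GluK3, which can form channels alone, summed to 2.13 and 1.89 times those for GluK4 and GluK5, which cannot. That difference was beyond the spread.

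NMDA receptors require GluN1, encoded by Grin1, with GluN2 or GluN3 subunits. Grin1 stood at 1.86 and 4.71 TPM. Grin2b was the highest NMDA gene by mean, at 4.99 and 5.30 TPM, and Grin3a stood at 1.66 and 1.42 TPM. The 4 GluN2 genes summed to 3.40 times Grin1 in replicate 1 and 1.58 times in replicate 2, and this was not beyond the spread between pools. Neighbours among the top 3 NMDA genes did not separate either. In Grin1, examined after its values were seen, the 4 coding transcripts with the 63-base cassette near the N terminus, at chr2:25311343-25311405 on the minus strand of GRCm38, were listed at 0 in both pools. The highest upper bound deposited for any of them was 0.663 TPM, and Grin1 itself was low. The coding transcript highest by mean, which lacks the cassette, had upper bounds of 0.743 and 0.806 TPM. The values of 0 therefore do not show that the cassette was left out.

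Of the metabotropic glutamate receptors, Grm2, a presynaptic receptor of group II, was the highest by mean, at 4.41 and 3.18 TPM. Grm7 of group III stood at 1.92 and 2.60 TPM, and Grm3 at 1.76 and 2.25 TPM. From Grm2 down to Grm4 no neighbours in the order differed beyond the spread between pools. Grm5, which couples to calcium release, stood at 0.93 and 0.76 TPM, below its neighbour Grm4 beyond that spread. Grm6, known from the light response of retinal bipolar cells, had 0 counts in replicate 1 and 1 in replicate 2.

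Glrb, which encodes the beta subunit that ties glycine receptors to the scaffold gephyrin, stood at 12.6 and 12.0 TPM. The 4 alpha genes, whose products form the pore and bind glycine, summed to 3.06 and 4.14 TPM, almost all of it Glra2. Glrb was therefore 4.11 and 2.89 times the alpha sum, beyond the spread between pools. Glra3 stood at 0.06 and 0.16 TPM, Glra4 at 0.03 TPM in both pools and Glra1 at 0.03 and 0 TPM, the last from 1 count in all.

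Among the GABA-A genes, Gabra2 stood at 11.8 and 13.4 TPM, Gabrb2 at 8.18 and 8.69 TPM and Gabra3 at 4.11 TPM in both pools. Gabrb2 was above Gabra3 beyond the spread between pools. Gabrd, whose delta subunit serves extrasynaptic receptors, stood at 0.05 and 0.03 TPM, from 2 counts and 1. The 3 rho genes, known from the retina, summed to 0.34 and 0.62 TPM. Of 6 retinal marker genes only Rax passed 1 TPM in both pools, Crx was at 0 in both, and the 6 summed to 3.03 and 5.43 TPM. The level of Gabra2 rests on a single listed transcript, which M21 annotates as a target of nonsense-mediated decay. That transcript has 2392 bases in the tables and 2245 in M21, and its class in the M4 annotation was not analysed here.

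Most GABA-A genes sit in chromosomal clusters that arose by duplication, and 16 of the 19 lie in 5 such groups, of which 3 are described here in full. In the chromosome 5 cluster only Gabra2 was high, and Gabra4 at 2.17 and 2.05 TPM, Gabrg1 at 0.98 and 1.16 TPM and Gabrb1 at 0.76 and 1.04 TPM were low. By mean, the highest gene of this cluster was 14.0 times the lowest. On the X chromosome Gabra3 was followed by Gabrq at 2.22 and 1.64 TPM and Gabre at 0.80 and 1.01 TPM. The rho pair on chromosome 4, Gabrr2 at 0.26 and 0.45 TPM and Gabrr1 at 0.05 and 0.11 TPM, was low throughout. In the other clusters Gabra5 stood at 1.46 and 1.27 TPM and Gabrg3 at 0.39 and 0.81 TPM. Gabra6, known from cerebellar granule cells, had 0 counts in both pools, where a count of 3 would have been 0.0725 and 0.0696 TPM. Gabra4 and Gabrb1 overlap by 196 bases on opposite strands. The sources used here do not say whether counting used strand, so reads in this overlap cannot be told apart.

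**Figure D3:**
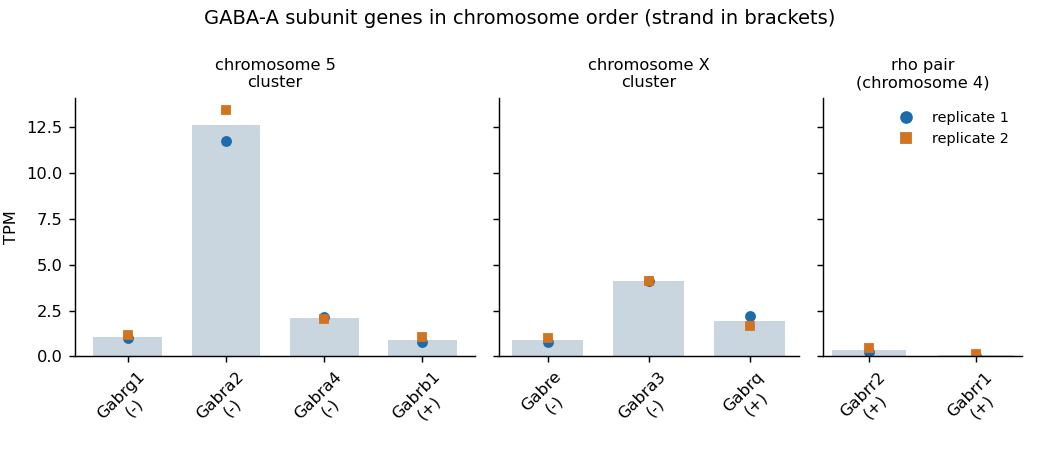
TPM of the GABA-A genes of 3 chromosomal groups, in their order along the chromosome with the strand in brackets; bars are means of 2 pools, circles replicate 1 and squares replicate 2. Gabra2 stands out in the chromosome 5 cluster, and the rho pair is below 1 TPM.

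Early and late subunits were then compared in 10 pairs, by the difference in log2(TPM + 1), a scale that understates the fold of low genes. A pair counted where the difference had the same sign in both pools and exceeded the larger change of either gene between pools. The early subunit was higher in 7 pairs, the late one in 1, and neither in 2. Some genes recur across pairs, as Glra2 does, so the pairs are not separate comparisons. The deposited intervals of the 2 genes were apart in both pools for 8 pairs. The 5 pairs of NMDA and glycine receptor genes are described one by one. Of the 9 early subunits 7 were detected, with a median of 3.45 TPM, and of the 10 late ones 3, with a median of 0.248 TPM. The early genes summed to 43.0 and 40.4 TPM and the late genes to 12.8 and 14.4 TPM, which is 3.36 times in replicate 1 and 2.80 times in replicate 2. Most of the late sum was Gabrb2, and the other late genes summed to 4.62 and 5.73 TPM. Of the early sum, Gabra2 held 11.8 and 13.4 TPM, on the transcript that M21 annotates as a decay target. Over both pools the ratio was 3.07. It was 2.37 on coding transcripts only and 2.30 on those with 90% of the longest coding sequence. With genes of a single listed transcript kept among the coding ones, it was 3.52. The lists name subunits by their known use in brain maturation, and no later stage was analysed here. No region outside the forebrain was analysed either, and the late list includes Gabra6, known from cerebellar granule cells. Whether a late gene was low by stage or by region therefore cannot be told apart.

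**Figure D4:**
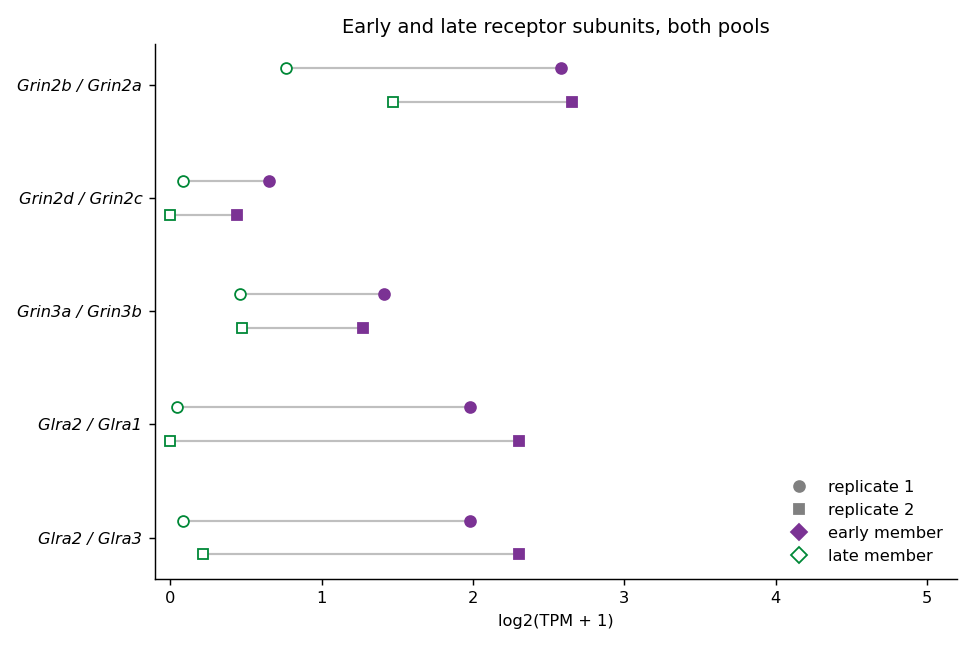
log2(TPM + 1) of the early (filled) and late (open) gene of 5 of the 10 pairs, those of the NMDA and glycine receptors, with circles for replicate 1 above squares for replicate 2. The early gene lies to the right in each of these 5, while the 10 pairs also include 1 with the late gene higher and 2 with neither.

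The glycine receptor pairs differed most in ratio. Glra2 stood at 2.94 and 3.95 TPM, from 434 counts in both pools together, against 1 count of Glra1. Per length this is a ratio of 261, with a 95% counting interval of 46.6 to 10344. Glra2 exceeded Glra1 by 2.12 ± 0.26 (SD, n = 2) and Glra3 by 1.99 ± 0.14 on the log2(TPM + 1) scale.

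Among the NMDA genes, Grin2b exceeded Grin2a, at 0.70 and 1.77 TPM, by 1.5 ± 0.45 on the log2(TPM + 1) scale. Grin3a exceeded Grin3b, at 0.38 and 0.39 TPM, by 0.87 ± 0.10. Grin2d stood at 0.57 and 0.36 TPM and Grin2c at 0.06 and 0 TPM, a difference of 0.51 ± 0.09 in which both genes were under 1 TPM. All 3 early NMDA genes were thus higher. Counts per kilobase of the longest transcript, an alternative chosen after seeing the data, gave smaller differences for Grin2b over Grin2a, 0.31, and for Grin2d over Grin2c, 0.19.

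The transcript tables showed what kind of RNA stood behind each level. Of 168 transcripts listed for the 48 genes, 160 were matched to M21 by identifier, and 135 of these had the same length there. The share on transcripts annotated as coding had a median of 100% over 31 genes at a mean of 1 TPM or more. Transcripts with at least 90% of the longest coding sequence held a median of 87.6% in replicate 1 and 80.6% in replicate 2. In 14 of the 31 genes such transcripts held over 90% of the level, and in 8 they held under 50%: Gria2, Gabra2, Gria4, Grin2b, Grik1, Gabrq, Grm8 and Grin2a. Among the 14, Gabra4, Gabra5, Gabrg1, Glra2, Grik3, Grik5, Grm2 and Grm3 have a single listed transcript, as does Gabra2. For such genes the share is 100% or 0% by annotation alone, and they enter the medians too. Grik2 was left out because 6 of its 8 transcripts were not matched.

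In Gria2, 38.3 ± 4.18% (SD, n = 2) of the level lay on coding transcripts. Its 5 retained-intron transcripts held 49.9% in replicate 1 and 51.7% in replicate 2, the highest of them at 11.2 and 11.6 TPM. Counted on coding transcripts alone, Gria2 stood at 16.1 and 13.4 TPM, still above Gria1 at its full level. It was then below the sum of the other AMPA genes counted in the same way. On full coding transcripts, which leave out a partial transcript of Gria4, Gria2 was above that sum, narrowly in replicate 2. In Gria4 the full coding share was 34.9 ± 4.12%, because a transcript with a shorter coding sequence stood at 4.79 and 5.83 TPM. In Grin2b it was 28.1 ± 4.03%, because a 703-base partial transcript stood at 2.89 and 3.02 TPM, and the full coding transcripts of Grin2b summed to 1.45 ± 0.269 TPM. In Grin2a it was 21.8 ± 11.6%, with a retained-intron transcript at 0.49 and 1.52 TPM. The levels of these 4 genes thus count much RNA without the full reading frame.

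**Figure D5:**
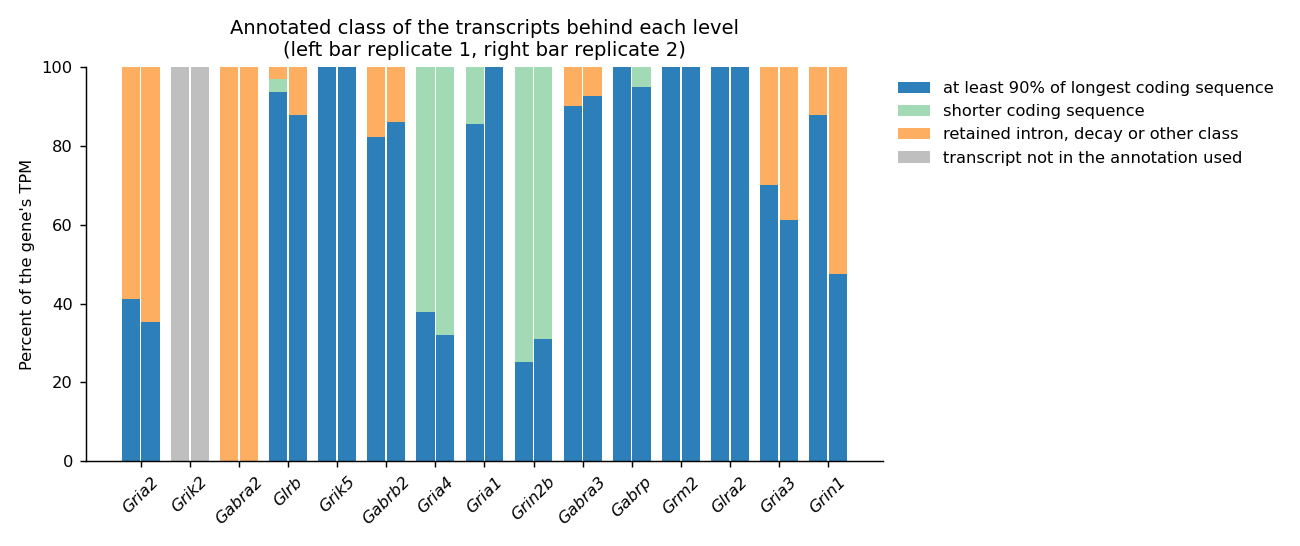
Share of the TPM of genes at a mean of 3 TPM or more by the annotated class of its transcripts, in percent, with the left bar for replicate 1 and the right bar for replicate 2. Gria2, Gabra2, Gria4 and Grin2b have under 50% on full coding transcripts in both pools, and Grik2 is gray because its transcripts were not matched.

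Few members differed between the pools, but their share, which rests on 3 genes, was above that of protein-coding genes. Detected members were lower in level, with a median of 3.40 TPM against 21.6 TPM for detected protein-coding genes. The part of level in this was not tested. Of 32 subunits at a mean of 1 TPM or more, 3 differed by more than 1.5-fold in TPM + 1, which is 9.38%, beside 1.8% of 13092 protein-coding genes. All 3 were higher in replicate 2, beside 1.27% of genes in that direction, and none was lower, beside 0.535%. By FPKM, on full coding transcripts and by counts per kilobase of the longest transcript, 2 members differed. With a pseudocount of 0.1 there were 4. No share over all genes is given for these alternatives. Gabrp, a GABA-A subunit known from epithelia, stood at 2.46 and 5.15 TPM. Grin1 stood at 1.86 and 4.71 TPM, but its deposited intervals overlapped, and Grin2a stood at 0.70 and 1.77 TPM. Grin2a thus reached a mean of 1 TPM only through replicate 2, the pool in which it was higher. On full coding transcripts, Grin1 stood at 1.63 and 2.24 TPM and Grin2a at 0.21 and 0.24 TPM. Transcripts not annotated as coding held 0.23 and 2.47 TPM in Grin1 and 0.49 and 1.52 TPM in Grin2a. The deposited intervals of the pools were apart for 7 of the 32, or 21.9%, beside 15.2% of genes, among them Gabrp, Grik3, Grik5, Grin2a, Grm2 and Glra2. The median absolute difference was 0.14 log2 over the 32 subunits and 0.09 over the genes. In replicate 2, 18 subunits were higher, 13 lower and 1 equal. Their median signed difference was 0.012 log2, beside 0.005 over the genes, so no lean apart from that of the genes is shown.

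Marker genes moved between the pools as well. The 8 markers of GABAergic ventral cells, led by Dlx1, Dlx2 and Dlx5, were all lower in replicate 2, with sums of 634 and 461 TPM and a median difference of -0.55 log2. The 8 dorsal glutamatergic markers, led by Neurog2, Emx1 and Neurod6, summed to 381 and 401 TPM, with a median difference of 0.06 log2. All 6 meningeal and all 6 blood markers were higher in replicate 2, with medians of 0.39 and 0.41 log2. Of 6 skeletal muscle markers, led by Mylpf, Actc1 and Acta1, 2 passed 1 TPM in both pools, and the 6 summed to 9.27 and 15.7 TPM. Of 10 surface epithelium markers, led by Epcam, Krt8 and Krt18 and chosen after seeing the data, 7 were higher in replicate 2, with sums of 56.9 and 58.1 TPM and a median difference of 0.31 log2. The 3 named are the ones that were lower there, and among the 7 higher ones Krt15 stood at 1.98 and 4.94 TPM and Krt5 at 3.06 and 5.22 TPM. The part of these cells in the levels of Gabrp, Grin1 and Grin2a was not tested.

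Genes that work with the receptors were mostly present, beside a share of 60.0% detected among all protein-coding genes. All 11 genes for anchoring and trafficking of GABA and glycine receptors were detected, led by Gabarap at 441 ± 5.69 TPM (SD, n = 2), Gabarapl2 and Ubqln1, with a median of 25.9 TPM. Of 17 genes for AMPA and kainate auxiliary and anchoring proteins 13 were detected, led by Cnih2, which escorts AMPA receptors out of the endoplasmic reticulum, at 147 ± 6.43 TPM, and then Nsf and Pick1. All 10 NMDA and metabotropic receptor scaffold genes were detected, led by Homer3 at 76.1 ± 1.90 TPM, Dlg1 and Dlg3. The median of the auxiliary list, 1.94 TPM, was close to that of the receptor genes, and those of the other 2 lists were higher.

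On the transmitter side, 7 of 8 genes of a list for GABA and glycine synthesis, transport and breakdown were detected. Gad2, which makes GABA, led it at 64.8 and 59.0 TPM, and Abat, which breaks GABA down, was also among its 3 highest. Slc6a5, the neuronal glycine transporter, stood at 0.01 and 0 TPM. Of 8 genes for glutamate metabolism and transport 7 were detected. Glul, which turns glutamate into glutamine, led them at 95.6 and 87.0 TPM, followed by the glutamate uptake transporter Slc1a3. All 4 chloride transporter genes were detected, where the share over all protein-coding genes was 60.0%. The importer Slc12a2 stood at 8.59 and 8.35 TPM, above the neuronal exporter Slc12a5 at 3.47 and 3.44 TPM, and Slc12a7 led the list.

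Of 4 related genes that the name rule leaves out, Gabbr1 stood at 26.8 and 26.1 TPM and its obligate partner Gabbr2 at 0.73 and 0.34 TPM. Grid1 stood at 0.72 and 1.22 TPM. The GABA-B pair was thus far from even, at 36.7 and 76.8 times. Of 3 GABA-A subunits known from germinal zones, Gabra4, Gabrg1 and Gabrb1, 1 was detected in both pools, and they summed to 3.91 and 4.25 TPM.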

How the data were processed

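Total RNA libraries of 2 forebrain pools were measured. The labels list mirVana extraction, selection of longer RNA, ERCC spike-ins and a SMARTer kit manual. Per the deposited descriptions, transcriptome alignments were quantified for each replicate alone on mm10 (GRCm38) with GENCODE M4. No source used here names the aligner, the quantifier or the use of strand. The authors deposited expected counts, which are estimated reads per feature, and TPM and FPKM, which are scaled for length. They also deposited posterior mean TPM with an interval, whose level those sources do not state, and for each transcript its percent of the gene's TPM. That interval belongs to the posterior mean, and the TPM of 45 of the 48 members in replicate 1 and of 44 in replicate 2 lay inside it.

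Symbols, positions, exons and transcript classes were looked up in GENCODE M21 (same build) by identifier without version. The deposited TPM was used as log2(TPM + 1), with detection at 1 TPM in both pools. Spike-ins and features with numeric identifiers entered no comparison. Full coding means at least 90% of the gene's longest coding sequence. Count ratios carry exact binomial 95% intervals, and these and the floor of 3 counts cover counting error only. Reads carry no molecular identifiers, so they are not independent molecules. The pools give a spread between samples only, and no test was possible.

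The members, pairs and lists were chosen with earlier results of these data known. Every member could be named, but 4 members, and a few genes of other lists, are not reported here by name. Values in both pools are given for pair members, the 3 highest of each class, members over 1.5-fold apart between pools and the GABA-A clusters. Of other lists the 3 highest are named. Isoforms were to be described for members at 10 TPM or more. Those of Gria1, Gria3, Gria4 and Grin1, all lower, were added after their values were seen. Alternatives were FPKM, posterior means, other thresholds and pseudocounts, rescaling over mouse genes, coding transcripts only, and leaving out each replicate, and 3 were added after seeing the data. The scripts were tested on simulated data and used Python 3.11.15, numpy 2.4.6, pandas 2.3.3 and scipy 1.17.1.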

Additional observations from a re-analysis of the deposited data

How the results depend on the processing

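Most results kept their direction and their side of the criterion. Over 10 pairs and 8 alternatives, 76 of 80 values did so, 2 reversed, 1 no longer passed and 1 newly passed. Both reversals were of 1 pair, which was -1.11 on coding transcripts only and -1.11 on transcripts with 90% of the longest coding sequence. With genes of a single listed transcript kept among the coding ones, that pair did not reverse, and its early gene was higher. The pairs with the early subunit higher numbered 6 or 7 under the alternatives that kept both pools, where the main value is 7. With a threshold of 3 TPM in place of 1, 14 members were detected in place of 30. The median coding share was 94.0% by posterior means in place of 100%. Leaving out 1 replicate gave 30 to 34 members detected, 7 to 8 pairs with the early subunit higher, an early over late log2 ratio of 1.49 to 1.75 and a median coding share of 100 to 100%. It gave GABA-A over AMPA 0.31 to 0.39 log2, and with replicate 1 alone the deposited intervals overlapped. The comparison of pools needs both and has no such value. No paired analysis was possible because the study has 1 group. Depth limits members under 3 counts.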

Other observations

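Promoter sequences, the 250 bases before and 50 after the start, were matched in RefSeq on GRCm38.p6 for 34 of the 48 subunit genes. In 20 detected members the median GC content was 63.8% with a median of 16 CpG dinucleotides, and in 14 members not detected in both pools it was 50.5% with 6. Over all protein-coding genes with a promoter the medians were 61.3% with 21 CpG for 10082 detected genes and 48.3% with 3 for 6235 others. The members thus follow the same order as protein-coding genes at large, given as a description with no test.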
